A study of Mus musculus with 36 samples.

Results

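The duodenum and the ileum, the first and the last segment of the small intestine, are told apart by a small set of genes, and 8 of them were followed through 36 libraries of mouse duodenal organoids. The genes were chosen by name: the duodenal identity genes Gata4, Gata6, Pdx1 and Onecut2 and the ileal identity genes Fgf15, Fabp6, Slc10a2 and Slc51b, out of 34197 genes in the count table. All 8 had counts, and 7 passed the filter on low counts (Fabp6 did not). Organoids are self-organised epithelial cultures in which crypt stem cells give rise to absorptive and secretory cells. They came from the duodenum of C57BL/6 mice, male or virgin female and older than 8 weeks, were kept in a medium with EGF, Noggin and R-spondin 1, and were harvested as 20 to 50 organoids for a sample of polyadenylated RNA from a microfluidic chip under flow. DAPT, a gamma-secretase inhibitor that blocks the cleavage of Notch receptors, was given in pulses with a period of 90, 130 or 170 min, and the control was the solvent DMSO, of which the labels do not state whether it was pulsed. Each treatment ran for 24, 48 or 72 h with 3 replicates, which makes 12 groups of 3, 9 libraries for a treatment and 12 for a duration. The DAPT concentration was 1.38 µM for 90 min, 2 µM for 130 min and 2.6 µM for 170 min (the labels give 2 µM as well for this period), so period and concentration cannot be told apart. The last passage was 3 days before a run of 24 h, 2 days before one of 48 h and 1 day before one of 72 h, so the duration of a run and the time since passage cannot be told apart in the same way. No label ties the 3 replicates of a group to separate cultures or mice, so p-values measure only the spread between these samples, which may be technical.

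Regional identity in the small intestine is kept by transcription factors in the epithelium itself and persists in culture. GATA4 and its paralogue GATA6 are zinc finger factors, and GATA4 is known to hold down ileal bile acid genes in the proximal intestine. PDX1 is a homeodomain factor of the duodenum and pancreas, and ONECUT2 is a cut homeodomain factor of the proximal small intestine. The ileal genes belong to bile acid recovery: SLC10A2 takes bile acids up at the apical membrane, FABP6 binds them in the cytosol, and SLC51B is the beta subunit of the exporter on the basolateral side, where it pairs with SLC51A. FGF15 is the hormone that ileal enterocytes release when bile acids activate the nuclear receptor FXR (gene Nr1h4), and it lowers bile acid synthesis in the liver.

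In a single treatment described below, all libraries of the longest run lay above those of the shortest for Slc10a2 and below them for Slc51b. With 170 min pulses Fgf15 and Slc51b were split in the same way. Neither separation was tested. The sequences before the start sites of the transporter genes Slc10a2 and Slc51b are shown because of the first. RefSeq, in mouse build GRCm38.p6, gave a start site for 4 of the 8 genes, Pdx1, Slc10a2, Slc51b and Fabp6. The 250 bases before the start of Slc10a2 lie at chr8:5105288-5105537 and those of Slc51b at chr9:65422774-65423023, both on the minus strand and written 5′ to 3′. Capitals mark matches on either strand to a GATA motif (AGATAA or TGATAA), a caudal homeobox (CDX) motif (TTTATG) or a nuclear receptor half-site (AGGTCA), which do not overlap one another.
Slc10a2: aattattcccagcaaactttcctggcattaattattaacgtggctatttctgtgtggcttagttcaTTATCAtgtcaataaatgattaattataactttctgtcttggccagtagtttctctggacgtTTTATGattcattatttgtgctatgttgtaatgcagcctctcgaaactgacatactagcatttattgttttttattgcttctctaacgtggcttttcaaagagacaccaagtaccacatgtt
Slc51b: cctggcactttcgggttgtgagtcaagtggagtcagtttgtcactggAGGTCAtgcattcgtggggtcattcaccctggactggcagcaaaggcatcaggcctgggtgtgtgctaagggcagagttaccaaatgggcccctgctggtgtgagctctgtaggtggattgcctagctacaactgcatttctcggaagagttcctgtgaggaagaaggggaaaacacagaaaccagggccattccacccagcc
The Slc10a2 window held a GATA match, TTATCA, at position -184 from the start and a CDX match, TTTATG, at position -122. The Slc51b window held 1 half-site, AGGTCA, at position -203. The windows also differ in base composition, with 34.4% G or C for Slc10a2 and 54.8% for Slc51b against a median of 52.4% over all windows. Of 32851 RefSeq windows of this length, 16.6% held a GATA match, 14.0% a half-site and 10.8% a CDX match. The Fabp6 window (chr11:43601563-43601812, minus strand) held 1 CDX match and the Pdx1 window (chr5:147269847-147270096, plus strand) none of the 3 motifs.

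Library totals ran from 482741 to 1447330 UMI counts (counts of distinct molecules), with a median of 958749. Levels are given below as CPM, the count divided by the TMM-scaled library total, and they were tested within a gene and not between genes. Defining markers of tissues around the duodenal epithelium were rare: over all 36 libraries the pancreatic genes Cpb1 and Pnlip had 7 and 11 counts, the colonic genes Car4 and Hoxd10 1 count each, the fibroblast gene Col1a1 7, the leukocyte gene Ptprc 9 and the endothelial gene Cdh5 1. Lists of fibroblast, immune and endothelial genes summed to at most 39.8, 22.0 and 5.0 CPM in any library and the pancreas list to at most 51.7 CPM, nearly all of it Bhlha15. The colon list was not low, with 81.1 to 490.8 CPM (median 320.3), most of it from Mptx1, which had 8945 counts over all libraries. This sum is not read as colonic expression, since the defining genes Car4 and Hoxd10 had 1 count each. The source of the Mptx1 counts was not tested. In bulk samples fewer cells of a type and less RNA in each cell cannot be told apart. All 4 duodenal genes had counts in each of the 36 libraries, but so did the ileal gene Slc10a2. Presence in every library therefore does not by itself tell duodenum from ileum. The ileal genes were not absent, but their counts were few.

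The duodenal genes were steady over the whole set. Gata4 had 97 to 224 counts in a library, and its level was 127.2 CPM in the lowest library and 222.5 in the highest. Gata6 had 92 to 289 counts and Onecut2 154 to 368. Pdx1 was counted less often, with 16 to 84 counts. The median coefficient of variation among the 3 libraries of a group was 10.4% for Gata4, 8.01% for Gata6, 12.9% for Pdx1 and 11.9% for Onecut2. The variance within groups was also divided by that of counting alone, so that counting noise gives a ratio of 1. This variance ratio was 1.23 for Pdx1, 1.67 for Gata6, 2.61 for Gata4 and 5.31 for Onecut2. Pdx1 therefore varied little more than its counts alone would give, and Onecut2 varied more than its counts would give.

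The ileal genes were sparse and varied far more. Fgf15 had 465 counts over the 36 libraries (median 7.5), Slc10a2 516 (median 13.5) and Slc51b 513 (median 13.5). Fgf15 was missing from 3 libraries and Slc51b from 1. A count of 0 allows up to 3 counts, which is 3.20 to 6.88 CPM in the libraries without Fgf15 and 2.87 CPM in the one without Slc51b, counting error only. The variance ratio was 11.2 for Fgf15, 2.94 for Slc10a2 and 3.27 for Slc51b. The edgeR estimate of the biological coefficient of variation of Fgf15 was 0.930, where genes of its abundance had 0.302, and 98.6% of tested genes had a lower ratio of their own value to that of their abundance. Fabp6, the cytosolic binding protein, had 17 counts in 12 libraries, never more than 3 in one. Its variance ratio of 0.725 is too low, because groups without any Fabp6 count add no spread but stay in the divisor. It is therefore not read as less than counting noise. In the 24 libraries without Fabp6 a count of 0 allows up to 2.14 to 6.88 CPM.

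**Figure D1:**
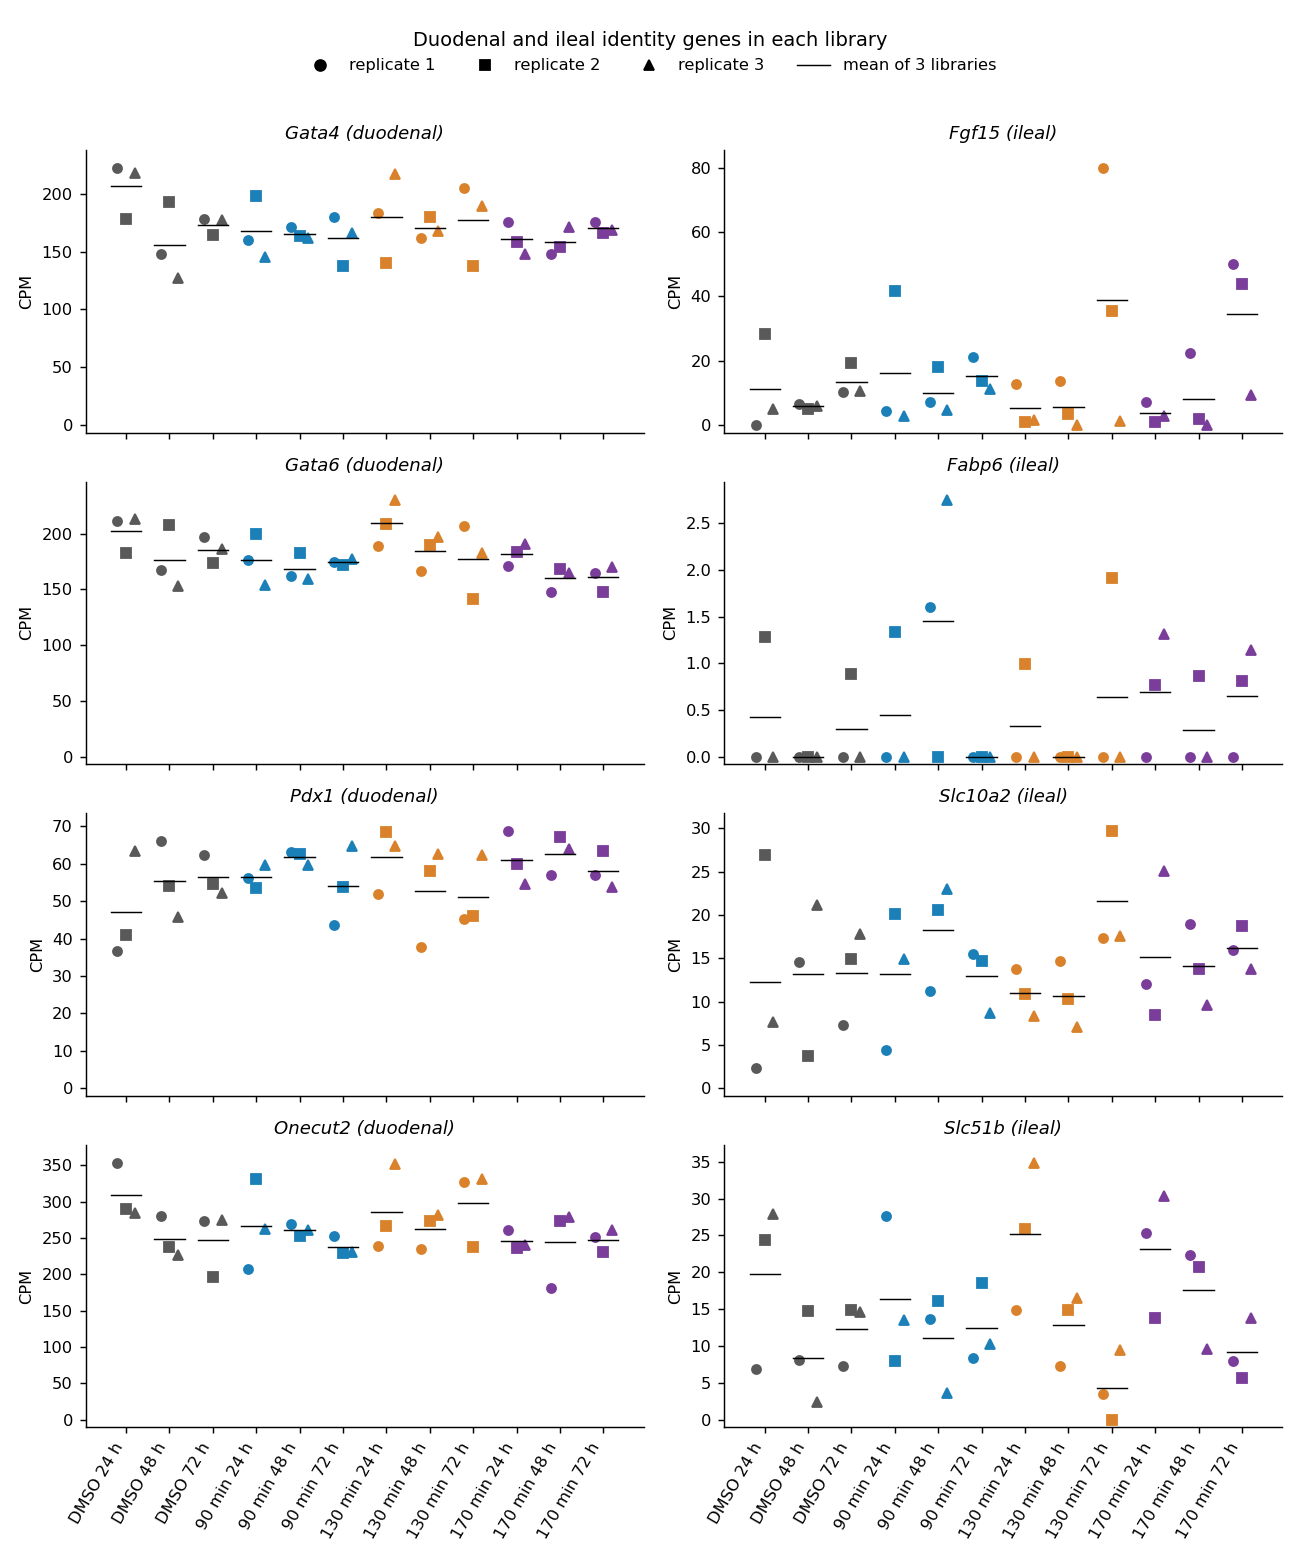
Level of each of the 8 genes in CPM (vertical axis, from 0) in the 36 libraries, by group (horizontal axis), with a symbol for the replicate number and a line at the mean of 3 libraries. The duodenal genes stay within narrow bands, while Fgf15 runs from 0 to 80.0 CPM and Fabp6 never exceeds 2.75 CPM.

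The first question was whether DAPT pulses moved duodenal or ileal identity away from that of the DMSO control, averaged over the 3 durations. Of the 7 tested genes 0 passed at 90, 130 or 170 min with edgeR's quasi-likelihood test and Benjamini-Hochberg adjustment at 0.05. The share of all 11462 tested genes called was 0% in each of these comparisons, the same share as among the members. At an unadjusted p under 0.05, 908, 629 and 990 tested genes differed from DMSO at 90, 130 and 170 min. With DESeq2 the number called over all genes was 0, 7 and 0, none of them a member.

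Gata6, the gene with the smallest variation within groups, came nearest to a difference from DMSO. Over the 9 libraries of a treatment its lowest, median and highest levels were 153.1, 186.0 and 213.3 CPM with DMSO and 147.9, 168.3 and 190.5 CPM with 170 min pulses. The ranges overlapped for most of their length. The log2 change was -0.16 (SE 0.07, unadjusted p = 0.0347, edgeR adjusted p = 0.556). At 90 min it was -0.11 (SE 0.07, edgeR adjusted p = 0.692) and at 130 min 0.01 (SE 0.07). At 72 h the 3 libraries of 170 min pulses had 165.1, 147.9 and 169.7 CPM and those of DMSO 197.3, 173.2 and 186.0 CPM, so all 3 were lower. At 48 h the same groups overlapped, with 147.9, 168.3 and 164.3 CPM against 167.7, 207.4 and 153.1 CPM.

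Gata4 had a median of 178.4 CPM with DMSO (127.2 to 222.5) and 165.8 CPM with 170 min pulses (147.6 to 176.1), a log2 change of -0.12 (SE 0.09, edgeR adjusted p = 0.689). At 24 h its libraries did not overlap: 176.1, 158.1 and 147.6 CPM with 170 min pulses were all below 222.5, 178.4 and 218.4 CPM with DMSO. At 48 h and 72 h they overlapped. Onecut2 showed the same order at 24 h, with 260.5, 236.3 and 240.5 CPM against 353.3, 290.1 and 284.4 CPM, and overlapped later. Its log2 change at 170 min over all durations was -0.11 (SE 0.10, edgeR adjusted p = 0.742). Pdx1 lay on the other side of 0, with 0.12 at 90 min (SE 0.11) and 0.19 at 170 min (SE 0.11, edgeR adjusted p = 0.626). At 24 h with DMSO, Pdx1 rested on 16, 32 and 50 counts. These treatment means also moved with depth: the deviations of Gata4, Gata6 and Onecut2 from their group means had r of -0.64, -0.53 and -0.60 with the log2 library total (a description over 36 libraries), and the median total was 828506 with DMSO and 1121958 with 170 min pulses. With the log2 total in the model the 170 min change became 0.017 for Gata4, 0.025 for Onecut2 and -0.071 for Gata6.

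None of the ileal genes separated from DMSO. Slc10a2 had a median of 14.5 CPM with DMSO (2.29 to 27.0) and 15.0, 13.8 and 13.8 CPM at 90, 130 and 170 min. Its log2 changes were 0.09 (SE 0.32), 0.05 (SE 0.33) and 0.19 (SE 0.31). Slc51b had medians of 14.6, 13.5, 14.8 and 13.8 CPM with DMSO and at 90, 130 and 170 min, and changes of 0.04 (SE 0.35), -0.26 (SE 0.39) and 0.25 (SE 0.35). Fgf15 had medians of 6.45, 11.1, 3.42 and 7.24 CPM, in ranges that reached 0 or near it and 28.2, 41.5, 80.0 and 50.0 CPM. The smallest edgeR adjusted p among these 9 results was 0.863. Differences of the size of these errors were not detectable with this spread between replicates and these counts.

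The 3 periods were also compared with one another. The share of tested genes called was 0% for 90 against 130 min, for 170 against 130 min and for 170 against 90 min, and 0 members passed in each (edgeR, unadjusted p under 0.05 for 1348, 1378 and 149 tested genes). DESeq2 called 19, 32 and 0 genes over the table. The member with the smallest p was Gata6, whose log2 change for 170 against 130 min was -0.17 (SE 0.07, unadjusted p = 0.022, edgeR adjusted p = 0.357). Slc51b differed most in size, at 0.51 (SE 0.38, edgeR adjusted p = 0.599) for 170 against 130 min. The interaction of treatment and duration, which asks whether treatments differed from one another by different amounts at 24, 48 and 72 h, called 0% of genes (272 at an unadjusted p under 0.05) and 0 members, with an edgeR adjusted p of 1.0 for all 7.

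**Figure D2:**
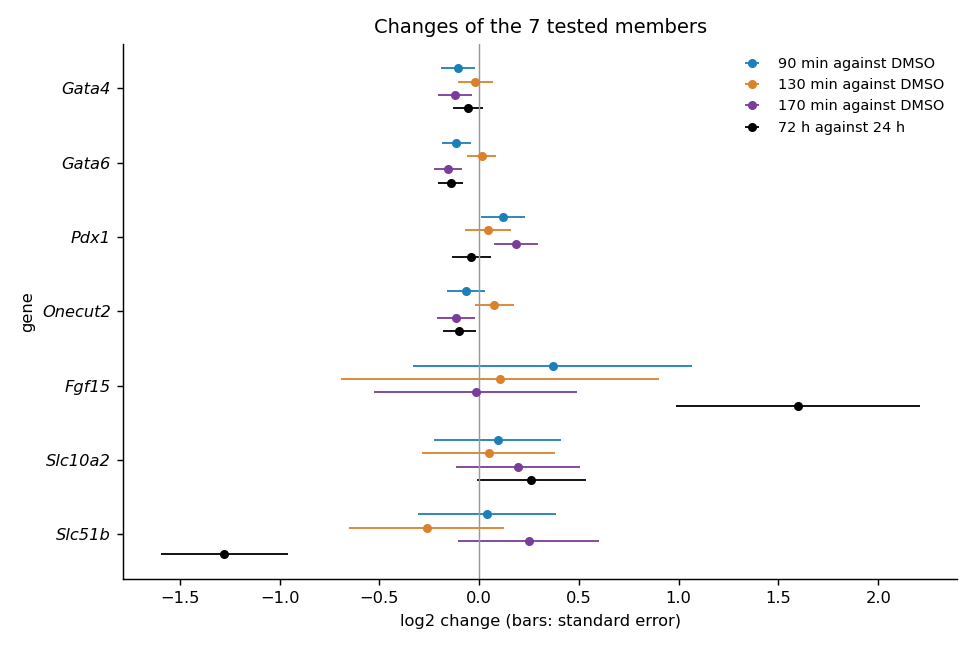
Log2 change (horizontal axis) of the 7 tested genes (vertical axis) for each period against DMSO, averaged over durations, and for 72 h against 24 h, averaged over treatments, with bars of 1 standard error from edgeR. The duodenal genes lie within 0.2 of 0, and the points farthest from 0 are those of Fgf15 and Slc51b for 72 h against 24 h.

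The second question was whether identity drifted over the run, averaged over the 4 treatments. The comparison of 72 h with 24 h was the one in which edgeR called any gene, 18 of the 11462 tested or 0.157%, 6 higher and 12 lower, and 0 of the 7 tested members. The share was 0% for 48 h against 24 h and for 72 h against 48 h, again with 0 members (1697, 1104 and 1442 tested genes at an unadjusted p under 0.05 in the 3 comparisons, in the order named). DESeq2 called 102, 12 and 9 genes.

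Slc51b, the exporter subunit, had the smallest p of the members over time. Its lowest, median and highest levels over 12 libraries were 6.88, 24.9 and 34.8 CPM at 24 h, 2.35, 14.2 and 22.3 CPM at 48 h and 0, 8.97 and 18.6 CPM at 72 h. The medians were lower at each later duration, and neighbouring durations overlapped. The log2 change was -0.80 from 24 to 48 h (SE 0.29, edgeR adjusted p = 0.432), -0.47 from 48 to 72 h (SE 0.33) and -1.28 from 24 to 72 h (SE 0.32, unadjusted p = 3.29e-04), where the edgeR adjusted p of 0.0636 was just outside the threshold.

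The single libraries of each treatment were as follows, with no test of treatments against one another over time beyond the interaction (edgeR adjusted p of 1.0). With 130 min pulses Slc51b was at 14.8, 25.8 and 34.8 CPM at 24 h and at 3.48, 0 and 9.49 CPM at 72 h, and all 3 late libraries were lower. With 170 min pulses the levels were 25.3, 13.8 and 30.3 CPM and then 8.00, 5.69 and 13.8 CPM; the highest late library, at 13.76 CPM, lay just below the lowest early one, at 13.81 CPM. With DMSO they were 6.88, 24.4 and 27.9 CPM and then 7.25, 14.9 and 14.6 CPM, and with 90 min pulses 27.7, 8.03 and 13.5 CPM and then 8.45, 18.6 and 10.3 CPM. In both of these treatments the 24 and 72 h libraries overlapped, and the medians were again lower at 72 h, 24.4 and 14.6 CPM with DMSO and 13.5 and 10.3 CPM with 90 min pulses.

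Whether Slc51b passed depended on the setting. DESeq2 gave an adjusted p of 0.0183 and edgeR without the filter on low counts 3.74e-05. Leaving out 1 library at a time gave log2 changes from -1.66 to -1.09 and edgeR adjusted p from 0.0222 to 0.158, and the gene passed without 5 of the 36: DMSO 48 h replicate 3 (0.0408), 90 min 24 h replicate 2 (0.0382), 130 min 24 h replicate 1 (0.0388), 130 min 72 h replicate 3 (0.0222) and 170 min 72 h replicate 3 (0.0435).

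Fgf15, the hormone gene, lay on the other side. Its lowest, median and highest levels were 0, 3.65 and 41.5 CPM at 24 h, 0, 5.40 and 22.3 CPM at 48 h and 1.36, 16.5 and 80.0 CPM at 72 h. The change from 24 to 72 h was 1.60 on the log2 scale (SE 0.61, unadjusted p = 0.0148, edgeR adjusted p = 0.228) and from 48 to 72 h 1.62 (SE 0.59, edgeR adjusted p = 0.306). The 72 h libraries with 130 min pulses had 80.0, 35.4 and 1.36 CPM (46, 37 and 1 counts) and those with 170 min pulses 50.0, 43.9 and 9.17 CPM (50, 54 and 8 counts). In each of these groups a pair of libraries was high and replicate 3 was low. The 24 h libraries with 170 min pulses had 7.24, 0.767 and 2.64 CPM, all below those of 72 h. In the other treatments the 24 and 72 h libraries overlapped. With DMSO the 72 h libraries had 10.2, 19.3 and 10.4 CPM, all above those of 48 h at 6.45, 4.91 and 5.89 CPM. With 90 min pulses the 72 h libraries had 21.1, 13.7 and 11.1 CPM. High values also occurred early: at 24 h replicate 2 had 28.2 CPM with DMSO and 41.5 CPM with 90 min pulses, beside 0 and 5.08 CPM and 4.46 and 2.85 CPM in the other libraries of those groups. Over all groups, replicate 3 was never above 11.1 CPM, while replicates 1 and 2 reached 80.0 and 43.9 CPM.

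Slc10a2, the apical uptake gene, had medians of 11.5, 14.2 and 15.7 CPM at 24, 48 and 72 h, with ranges that overlapped for nearly all of their length (2.29 to 27.0, 3.68 to 22.9 and 7.25 to 29.7 CPM). The change from 24 to 72 h was 0.26 (SE 0.27, edgeR adjusted p = 0.706). In 130 min pulses alone the 3 libraries of 72 h, at 17.4, 29.7 and 17.6 CPM, were all above those of 24 h, at 13.8, 10.9 and 8.30 CPM, and those of 48 h, at 14.6, 10.3 and 7.09 CPM. In that treatment the 72 h libraries thus lay all above those of 24 h for Slc10a2 and all below them for Slc51b, whose products move bile acids at opposite sides of the cell. Single treatments were not tested. Most comparisons of 3 with 3 libraries overlapped for these genes, and the share that did not overlap was not determined over all genes. The separations named here and in other paragraphs are therefore given as levels and not as results about these members. Fabp6 had 6, 6 and 5 counts at 24, 48 and 72 h in all.

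Changes of the duodenal genes over time were small. From 24 to 72 h the log2 change was -0.06 for Gata4 (SE 0.07), -0.14 for Gata6 (SE 0.06, edgeR adjusted p = 0.275), -0.04 for Pdx1 (SE 0.10) and -0.10 for Onecut2 (SE 0.08). Gata6 had medians of 189.5, 167.0 and 173.9 CPM at 24, 48 and 72 h. With 170 min pulses its 48 h libraries (147.9, 168.3 and 164.3 CPM) and its 72 h libraries (165.1, 147.9 and 169.7 CPM) were all below those of 24 h (171.2, 183.4 and 190.5 CPM). In DMSO the Onecut2 libraries of 48 h (280.6, 238.1 and 227.2 CPM) and 72 h (272.7, 196.1 and 274.7 CPM) were all below those of 24 h (353.3, 290.1 and 284.4 CPM). Neither pattern was present in all 4 treatments.

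Other genes of proximal and distal intestine give the setting for these changes. Between 24 and 72 h, 1 of 15 tested proximal absorptive genes was higher (median log2 change -0.33) and 1 of 7 tested distal genes was higher (median -0.59), and 0 of either list passed. The median over all tested genes was -0.00305. Slc51a, which encodes the partner subunit of SLC51B and is on the distal list, changed by -0.51 (SE 0.30, edgeR adjusted p = 0.440). Fabp1, the fatty acid binding protein of the proximal list, changed by -1.05 (SE 0.24), and its edgeR adjusted p of 0.0501 missed the threshold. So the proximal and the distal list had medians of the same sign. Of 7 tested bile acid receptor and bile acid handling genes 3 were higher (median -0.08) and 0 passed. Nr1h4, the bile acid receptor that induces Fgf15, changed by -0.08 (SE 0.12, edgeR adjusted p = 0.803).

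Markers of mature absorptive cells are given beside Slc51b. Of 14 tested enterocyte genes 0 were higher at 72 h than at 24 h (median -0.47). Apoa4, a lipid carrier gene, passed, with a log2 change of -1.82 (SE 0.38, edgeR adjusted p = 0.0480). The summed level of the list ran from 3152 to 8216 CPM (median 4941) at 24 h and from 1571 to 4517 CPM (median 3967) at 72 h. Of 5 tested stomach and Brunner gland genes (of 11 listed) 4 were higher (median 1.24), and 1 passed, Gkn1, which encodes a gastric mucosal protein (3.09, SE 0.63, edgeR adjusted p = 0.0432). The list summed to 69.7 to 322.7 CPM at 24 h and 197.2 to 534.3 CPM at 72 h. Most of its counts over all libraries came from Gkn3 (3629), Tff1 (3115) and Tff2 (1101), while Sox2, its defining stomach factor, had 2. These calls are among the 0.157% of all tested genes called in this comparison. No gene at all was called, Apoa4 and Gkn1 included, in 7 of the 36 fits with 1 library left out: those without DMSO 24 h replicate 3, DMSO 72 h replicate 3, 90 min 24 h replicate 1, 90 min 72 h replicate 1, 90 min 72 h replicate 2, 170 min 24 h replicate 3 or 170 min 72 h replicate 2. The part of either list in the levels of Slc51b and Fgf15 was not tested.

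The third question was whether duodenal and ileal genes oppose each other from replicate to replicate. Each library's deviation from the mean of its group on the log2(CPM + 1) scale carries no mean effect of treatment or duration, and these deviations were correlated over the 36 libraries for the 21 pairs of the 7 tested genes. p-values came from 100000 permutations of 1 gene within groups, two-sided, with Benjamini-Hochberg adjustment over the 21 pairs. Of the 12 pairs of a duodenal with an ileal gene 0 passed 0.05 by Pearson r (values by rank are given below). Of the 9 pairs on one side 4 did.

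Of these 4 pairs 3 joined duodenal factors. Gata4 and Gata6 had r = 0.71 (permutation p = 0.00145, adjusted p = 0.0283; rho = 0.64), and r was 0.62, 0.79 and 0.79 among libraries of replicate number 1, 2 and 3. Gata6 and Onecut2 had r = 0.58 (permutation p = 0.00604, adjusted p = 0.0423; rho = 0.55) and Gata4 and Onecut2 r = 0.56 (permutation p = 0.00826, adjusted p = 0.0434; rho = 0.59). Within a replicate number these ran from 0.51 to 0.69 and from 0.56 to 0.72. The 3 deviations of a group sum to 0, so values within replicate numbers, here and below, are not independent of one another. Pdx1 was the exception on the duodenal side, with r of 0.11, 0.25 and 0.21 with Gata4, Gata6 and Onecut2. The 3 factors that varied together are those whose deviations followed the library total, and with the log2 total removed r was 0.57 (permutation adjusted p = 0.0728), 0.39 and 0.29 in the order named.

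The remaining pair joined ileal genes. Fgf15 and Slc10a2 had r = 0.56 (permutation p = 0.0027, adjusted p = 0.0283; rho = 0.56), with 0.82, 0.76 and 0.54 within replicate numbers 1, 2 and 3. Removing the log2 total left r at 0.56 (permutation adjusted p = 0.00966). In 2 libraries, which belong to groups whose same-numbered libraries deviated together, both were high: replicate 2 of DMSO at 24 h had 28.2 CPM of Fgf15 and 27.0 CPM of Slc10a2, and replicate 2 of 90 min pulses at 24 h 41.5 and 20.1 CPM. Replicate 1 of DMSO at 24 h had 0 and 2.29 CPM, in the shallowest library of the set. The highest Fgf15 of all, 80.0 CPM in replicate 1 of 130 min pulses at 72 h, came with 17.4 CPM of Slc10a2. There the deviation from the group mean was 2.08 for Fgf15 and -0.25 for Slc10a2, so this library went against the relation. Slc51b did not follow the other ileal genes, with r of -0.12 with Fgf15 and -0.16 with Slc10a2.

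For each pair the 2 libraries farthest from the median deviation of its first-named gene were left out and the groups centred again. These were replicate 2 of DMSO at 48 h and of 130 min pulses at 72 h for the duodenal pairs. For Fgf15 and Slc10a2 they were replicate 3 of 130 min pulses at 72 h and replicate 1 of 170 min pulses at 48 h. This gave r = 0.52 for Gata4 and Gata6 (permutation adjusted p = 0.129). It gave 0.58 for Gata4 and Onecut2, 0.60 for Gata6 and Onecut2 and 0.59 for Fgf15 and Slc10a2 (permutation adjusted p = 0.0820 for each). So 0 of the 4 pairs passed. Same-numbered libraries of 130 and 170 min pulses deviated together at all 3 durations, those of DMSO and 90 min pulses at 24 h and at 48 h, and those of 24 h and 48 h within 130 and within 170 min pulses, so libraries are not fully independent and the p-values above may be too small. Permuting such linked groups together, as 6 sets with 46656 arrangements in all, kept 1 of the 4 pairs, Gata4 and Gata6 (exact permutation adjusted p = 0.0144), and gave 0.0888 for Fgf15 and Slc10a2 and 0.0942 for each of the others.

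**Figure D3:**
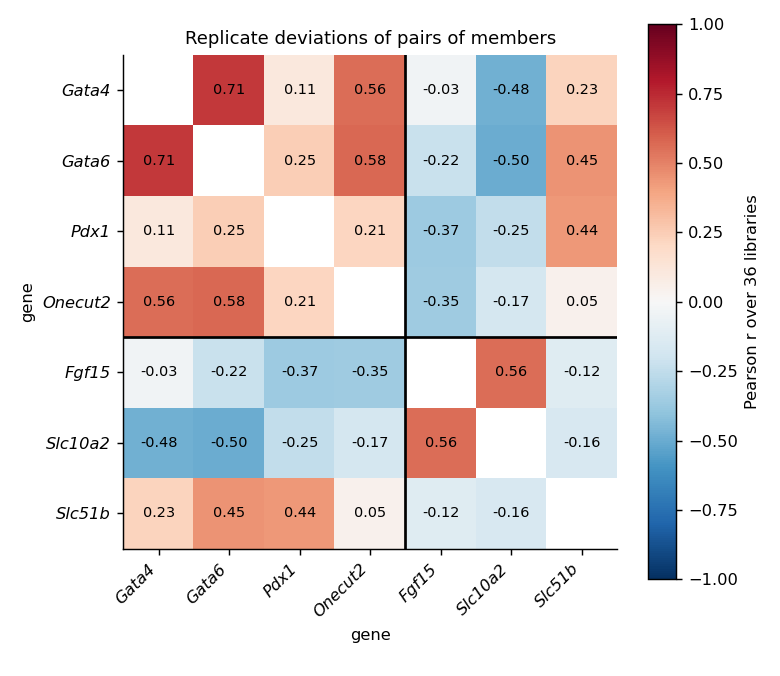
Pearson r between the replicate deviations of each pair of the 7 tested genes over 36 libraries (both axes list the genes, colour gives r, lines divide duodenal from ileal genes). The duodenal block is positive throughout, Fgf15 and Slc10a2 are negative with all 4 duodenal genes, and Slc51b is positive with them.

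Opposition across the divide was nearest for Slc10a2 and the GATA factors. Gata6 and Slc10a2 had r = -0.50 (permutation p = 0.0156, adjusted p = 0.0654; rho = -0.54, adjusted p = 0.0314) and Gata4 and Slc10a2 r = -0.48 (permutation p = 0.0230, adjusted p = 0.0806; rho = -0.54, adjusted p = 0.0314). The deviations had opposite signs in 27 of the 36 libraries for each of these pairs. Within replicate numbers 1, 2 and 3, r was -0.50, -0.51 and -0.63 for Gata6 and -0.22, -0.43 and -0.73 for Gata4. With the replicate block Gata6 and Slc10a2 had r = -0.58 (permutation adjusted p = 0.0111), past the threshold, and Gata4 and Slc10a2 r = -0.38 (0.234). Removing the block ties the deviations of groups at one duration to one another. Shuffling within groups ignores this, so the p-values with the block may be too small. Both pairs passed by rank, a measure planned beside r, although a count of passes by rank was not planned. They also passed by the joint permutation of linked groups (exact permutation adjusted p = 0.0104 and 0.0144), a choice made after the data were seen. Without the 2 libraries farthest from the median of the GATA gene r was -0.36 and -0.32 (permutation adjusted p = 0.357 for both). With the log2 total removed r was -0.39 (permutation adjusted p = 0.191) and -0.35.

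The other ileal genes differed in sign, and no test compared them with Slc10a2. Fgf15 was also negative with all 4 duodenal genes, with r of -0.03 with Gata4, -0.22 with Gata6, -0.37 with Pdx1 and -0.35 with Onecut2. Slc51b leaned the other way, with r of 0.23 with Gata4, 0.45 with Gata6 (permutation adjusted p = 0.247), 0.44 with Pdx1 (permutation adjusted p = 0.119) and 0.05 with Onecut2. The mean deviation of the 4 duodenal genes and that of the 3 tested ileal genes had r = -0.26, given as a description, and were of opposite sign in 20 of 36 libraries. Leaving out 1 library at a time moved this r between -0.36 and -0.16.

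**Figure D4:**
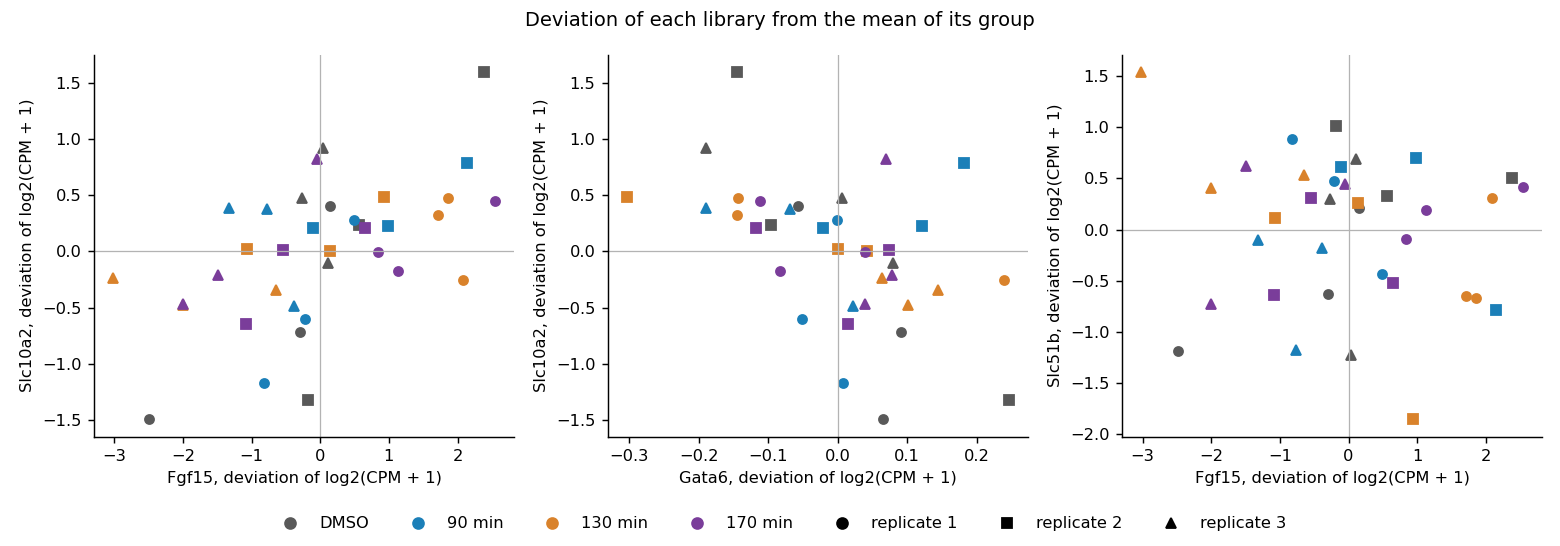
Deviation of each of the 36 libraries from its group mean in log2(CPM + 1) for Slc10a2 against Fgf15 (left), Slc10a2 against Gata6 (middle) and Slc51b against Fgf15 (right), with colour for treatment and symbol for replicate number. The left panel rises (r = 0.56), the middle panel falls (r = -0.50), and the right panel shows no such relation (r = -0.12).

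Each gene was then set beside lists of cell type genes in the same deviations, as a description over 36 libraries that share depth and composition. Slc51b followed the enterocyte list (r = 0.79) and both the proximal (0.81) and the distal list (0.76). Gata6 and Gata4 also had positive r with the enterocyte list (0.74 and 0.66), the proximal list (0.72 and 0.53) and the distal list (0.66 and 0.57). For Pdx1 and Onecut2 r was 0.49 and 0.43 with the proximal list and 0.35 and 0.32 with the distal list. Fgf15 had r = 0.01 with the enterocyte list and -0.49 with the crypt stem cell list, and Slc10a2 -0.28 and -0.60. With the proximal and the distal list r was -0.33 and -0.15 for Fgf15 and -0.41 and -0.37 for Slc10a2. Slc51b thus varied with mature absorptive genes of either region, as did Gata6 and Gata4, and Fgf15 and Slc10a2 did not.

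The genes whose deviations were most like those of each member were found among 9003 tested genes with a mean of at least 20 CPM. Slc51b was followed by Mme, Slc6a20a and Bbox1 (r = 0.87 each), the first a membrane peptidase and the second an amino acid transporter. Gata6 was followed by Mttp, which loads lipid onto lipoproteins (0.86), Cth (0.86) and Ncor1 (0.85), and Gata4 by Myo6 (0.84), Gstm3 (0.83) and the enterocyte phosphatase Alpi (0.83). Onecut2 was nearest to Npepps (0.88), Lpp (0.81) and Galnt7 (0.79), and Pdx1 to Fam210b (0.73), Hint3 (0.69) and Chn2 (0.68). Fgf15 was nearest to Tmem173 (0.85), which encodes the innate immune adaptor STING, Rin1 (0.82) and Rhod (0.80), and Slc10a2 to Rab27b (0.78), AA986860 (0.74) and Crlf3 (0.73). Fgf15, Slc10a2 and Slc51b, with means of 13.9, 14.3 and 14.4 CPM, were below this minimum and could not be named beside another member.

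The lowest r belonged to Fancb (-0.80) and Alg13 (-0.77) for Gata4, Wdyhv1 and Tspan9 (-0.79 each) for Gata6, Hdac7 (-0.76) and Emp2 (-0.74) for Pdx1 and Rps12-ps4 (-0.80) and Trit1 (-0.77) for Onecut2. On the ileal side it belonged to Rsu1 and Fam92a (-0.79 each) for Fgf15, Snx1 (-0.79) and Irf8 (-0.77) for Slc10a2 and Pcsk6 (-0.73) and Sidt1 (-0.72) for Slc51b. Such extremes are the ends of 9003 values and carry no test.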

How the data were processed

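The authors deposited UMI counts, whole numbers for each gene symbol and library, from Sort-seq libraries per the labels' protocols. The submitters' processing notes name STAR 2.7.8a and UMI-tools 1.1.1. For the build, the annotation and the counting rule: not given in the sources used here. Genes were tested with edgeR 4.0.16 (R 4.3.3): filterByExpr kept 11462 of 34197 genes, with TMM scaling, 12 group coefficients, 24 residual degrees of freedom and robust quasi-likelihood F tests, two-sided, adjusted over all tested genes. SEs are the log2 change over the root of F. DESeq2 1.42.0, RLE scaling, no filter, a stricter filter (10 counts in 18 libraries), a depth covariate, a replicate block and leaving out each library were alternatives. The test was checked on simulated data. The members and all gene lists were chosen with earlier results of these data known. All 8 members are named, with list genes that passed (at most 4 of a list) and the 3 most and 2 least alike genes of each member; other list genes are named for their role, after their values were seen. Same-numbered libraries deviated together (every r over 0.1) in 7 of 30 pairs of groups, which include 130 with 170 min at each duration. The test of replicate numbers therefore stands here alone: 0% of genes and 0 members passed (679 genes at an unadjusted p under 0.05), with an edgeR adjusted p of 0.832 for Fgf15.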

Additional observations from a re-analysis of the deposited data

Results flagged for a closer look

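Gata4 with 90 min pulses lay on opposite sides of the DMSO mean of log2(CPM + 1) at 2 durations, in all 3 libraries each time, although the libraries of both treatments overlapped. On the log2(CPM + 1) scale the difference from the DMSO mean averaged -0.30 at 24 h and 0.10 at 48 h, a shift of 0.41. Slc51b with 130 min pulses did the same later in the run, also with overlapping libraries: the difference averaged 0.76 at 48 h and -1.82 at 72 h, a shift of -2.58, in a group whose 72 h libraries held 2, 0 and 7 counts. Neither shift was tested on its own, and the interaction of treatment and duration over all groups had an edgeR adjusted p of 1.0 for both genes.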

How the results depend on the processing

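The number of members called stayed at 0 under all alternatives run, except for 72 h against 24 h and for the replicate numbers. For 72 h against 24 h it was 1 with DESeq2 and 1 without the filter, and 0 to 1 with 1 library left out, each time Slc51b; for replicate numbers it was 1 without the filter (Fgf15). With the replicate block the change of Slc51b was -1.29 (edgeR adjusted p = 0.0611) and that of Fgf15 1.80 (0.0611), and the block changed no call of a member; it moved the 130 min change of Fgf15 to -0.030. With the depth covariate the 90 min change became 0.011 for Gata4, 0.054 for Onecut2, -0.082 for Slc10a2 and -0.055 for Slc51b, and the 170 min change 0.017 for Gata4, 0.025 for Onecut2, -0.041 for Slc10a2 and 0.133 for Fgf15 (0.048 with DESeq2). With 1 library left out, changes crossed 0 for Fgf15 at 90, 130 and 170 min (-0.30 to 1.00, -0.56 to 0.75, -1.01 to 0.62), for Slc10a2 at the same periods (-0.050 to 0.50, -0.083 to 0.47, -0.012 to 0.61), for Slc51b at 90 min (-0.16 to 0.22), for Gata4, Gata6 and Pdx1 at 130 min (-0.063 to 0.042, -0.023 to 0.068, -0.0037 to 0.15) and for Pdx1 from 24 to 72 h (-0.082 to 0.040). The 4 pairs on one side became 0 without TMM, 2 with the replicate block, 1 with depth removed, 1 by joint permutation, 0 without the 2 farthest libraries, 0, 0 and 0 without replicate number 1, 2 or 3 of every group, and 0 to 4 with 1 library left out. The 0 pairs across the divide became 1 with the replicate block, 2 by joint permutation, 2 by rank and 0 to 2 with 1 library left out. Permutation p-values with the replicate block may be too small, as said above. Over all genes, 72 h against 24 h gave 18 calls, but 102 with DESeq2, 304 without the filter, 5 with the stricter filter, 12 with the depth covariate and 0 to 152 with 1 library left out (152 without 130 min 24 h replicate 1). The other comparisons, at 0 calls over all genes, reached 7, 19, 32, 12 and 9 with DESeq2 (130 min against DMSO, 90 and 170 against 130 min, 48 against 24 h, 72 against 48 h). Without the filter they reached 1, 4 and 2 for 90, 130 and 170 min against DMSO, 6 and 7 for 90 and 170 against 130 min, 7 for 48 against 24 h, 132 for 72 against 48 h, 15 for the interaction and 242 for replicate numbers. With 1 library left out they reached at most 4 for 130 min against DMSO, 6 for 90 against 130 min and 9 for 72 against 48 h. Causes were not tested. Counts of 0 to 54 limit all statements on the ileal genes, Fabp6 could not be tested, and 14 of 77 DESeq2 results of members had no adjusted p.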

Other observations

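Of 13 tested regulators shared by the whole small intestine 6 were higher at 72 h than at 24 h (median log2 change -0.02) and 0 passed edgeR's test. Cdx2, which sets intestinal fate, changed by -0.02 (SE 0.08), Hnf4a, a nuclear receptor of enterocytes, by -0.07 (SE 0.08), Gata5, the third GATA gene of the gut, by 0.05 (SE 0.09) and Zfpm1, which encodes a GATA cofactor, by 0.15 (SE 0.10). For 170 min pulses against DMSO 5 of 13 were higher (median -0.11) and 0 passed. In the deviations from the group means, given as a description over 36 libraries that share depth, this list had r of 0.76 with Gata4, 0.65 with Onecut2 and 0.63 with Gata6, but -0.04 with Pdx1, -0.08 with Slc51b, -0.25 with Fgf15 and -0.51 with Slc10a2.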
